A study of Homo sapiens with 12 samples.

Results

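Genes whose eIF3 crosslinking sites lay only in coding regions were examined in activated Jurkat cells, a human T cell leukemia line grown here as Clone E6-1. The site numbers per mRNA region were summed over both activated EIF3A/C/B libraries. A gene was kept if it had at least 1 coding or stop codon site and no 5'-UTR, start codon or 3'-UTR site. The rule kept 543 genes, called coding-only mRNAs below, of 5518 genes listed in these libraries. This is 11.8% of the 4587 genes with any mRNA site. The genes were thus chosen by their measured site numbers, so their sites and reads in the EIF3A/C/B libraries are given as descriptions, with no test.

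PAR-CLIP uses UV light to crosslink RNA that has taken up 4-thiouridine to a bound protein. The crosslinked base then reads as C in place of T. Activated cells received 50 µM 4-thiouridine for 7 hours and then PMA and ionomycin for 5 hours, with 4-thiouridine still in the medium. Non-activated cells received 4-thiouridine for the same total time without PMA and ionomycin. Cells of both states were then irradiated at 365 nm (364 nm in the series text) with 0.2 J/cm2. An EIF3B antibody pulled down eIF3, and 5 gel bands, each holding several eIF3 subunits, gave a library each from 2 biological replicates per state, 20 libraries in all. The labels name no separate immunoprecipitates for the bands of a replicate, so bands of the same replicate are not independent samples. All the cells were of 1 clone of 1 line. RNA-Seq of both states was deposited as means of 2 replicates. The libraries held 83846 to 1163754 uniquely aligned reads, and 76 to 4916 genes were listed in a library. A gene is listed only where a cluster was called, and the lowest listed value was 7 reads. Of 12 T lineage markers, 10 were at 1 TPM (transcripts per 1000000) or more in activated cells and CD4 was at 0.0196 TPM. Of 20 markers of other cell types, PECAM1, at 1.25 TPM, was the only one at 1 TPM or more.

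eIF3 is the largest initiation factor. It binds the small ribosomal subunit and helps to place it on the 5' end of an mRNA, and its crosslinks are known mostly from 5'-UTRs. Coding regions are read by elongating ribosomes up to the stop codon, where release factors end translation. Region names depend on the annotation of each transcript, so a site is coding only with respect to the transcript models used.

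The label holds for most but not all of these genes. Sites in introns were also present in 25 of the 543 genes, and 51 genes had sites that the tables place in none of the region columns. Neither kind was present in 474 genes. TRBC2, the constant segment of the T cell receptor β chain, had 1 stop codon site and 41 sites in no region. TRAC, the constant segment of the α chain, had 2 stop codon sites and 13 in no region. For these receptor genes the coding-only class therefore rested on 1 or 2 of their sites. The paper reports eIF3 crosslinks along the whole TCRA and TCRB mRNAs of activated cells, 3'-UTRs included. The label thus does not describe these receptor mRNAs. PPAN-P2RY11, a readthrough gene joined from PPAN and P2RY11, had 10 coding and 17 intron sites. BCOR, a Polycomb corepressor, and AUTS2 each had 1 coding and 11 intron sites.

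Stop codon sites were present in 22 coding-only mRNAs, and 15 of them had no other coding site. The windows shown are the last 30 coding bases, 5' to 3' in GENCODE 44 on hg38, of the 5 such genes with the most reads. The stop codon is in capitals. T stands for the U at which a crosslink can occur.
TRBC2: atggtcaagagaaaggattccagaggcTAG
TRAC: ctcatgacgctgcggctgtggtccagcTGA
MT2A: gcgtcggacaagtgcagctgctgcgccTGA
ZNF775: gcgtgcagccccaaggaggaggcgcgcTAG
ADCY7: gccaagtttcaggggctggggctgaacTGA
They lie at chr14:22550634-22550663 for TRAC, chr16:56609325-56609354 for MT2A, chr7:150398066-150398095 for ZNF775 and chr16:50315476-50315505 for ADCY7, all on the plus strand. The TRBC2 window is split by an intron within chr7:142802209-142802529, plus strand. These windows held 2 to 7 T, with 2 in ZNF775 and 7 in TRAC. The positions of the clusters are not in the tables, so the windows show the annotated stop codon and not a mapped crosslink.

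The HIST1H2A genes of the set differed from each other at 3 or 4 of the last 30 coding bases. Histone H2A is a core protein of the nucleosome.
HIST1H2AC: gagagtcaccacaaggccaagggcaagTGA
HIST1H2AK: gagagccaccacaaggccaagggcaagTAG
HIST1H2AL: gagagtcaccacaaggccaaaggcaaaTAA
The windows lie at chr6:26124596-26124625 on the plus strand for HIST1H2AC, chr6:27837947-27837976 on the minus strand for HIST1H2AK and chr6:27865718-27865747 on the plus strand for HIST1H2AL. Counting from 1 at the 5' end, HIST1H2AK differed from HIST1H2AC by T6C, G29A and A30G. HIST1H2AL differed from HIST1H2AC by G21A, G27A and G29A. Of all 20-base words of the coding region, 31.3% in HIST1H2AC, 52.9% in HIST1H2AK and 52.4% in HIST1H2AL also occurred in transcripts of other genes. The largest share with a single other gene was 14.4% in HIST1H2AC, 20.9% in HIST1H2AK and 18.4% in HIST1H2AL. What this sharing does to their read counts was not tested.

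The same search covered 538 coding-only mRNAs that matched an annotated coding region. At least 50% of the words were shared with transcripts of other genes in 65 of them, while under 1% were shared in 283. TRBC2 shared 61.2% with TRBC1. PPAN-P2RY11 shared 99.3% with other genes, with PPAN in the lead at 53.3%. EIF3C and EIF3CL, copies of an eIF3 subunit gene, each shared 99.8% or more with other genes. PPIA shared 96.0% and HNRNPA3 94.9%, mostly with pseudogenes. TRAC, MRPL52 and CLEC2B shared none.

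Most coding-only mRNAs carried few reads. The summed reads of both replicates had a median of 21, with quartiles of 10 and 41, against a median of 52 for the 4044 other genes with mRNA sites. The range was 7 to 2379 reads, and 48 genes had at least 100. All 543 together held 4.17% of the cluster reads of these libraries. A total of 206 genes had 1 coding site over both libraries, 218 had 2, 112 had 3 to 9 and 7 had at least 10. The share of mRNAs that were coding-only was 22.7% among genes with 1 mRNA site and 2.41% among genes with 10 to 19, and it was 0 of 85 genes with 20 or more, which allows a share of up to 3.53% by 3 counts of the total and has a Wilson upper limit of 4.32%. The median T-to-C fraction of a site was 0.89 in each replicate for coding-only mRNAs and 0.87 for the other genes.

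TRBC2 led the set with 1185 and 1194 reads in the activated EIF3A/C/B replicates. HIST1H2AC followed with 996 and 992 reads at 3 coding sites. LAMTOR5, a subunit of the Ragulator complex that docks mTORC1 on lysosomes, had 521 and 533 reads at 2 coding sites. In all these genes the replicates were close to each other.

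TAP1, which with TAP2 forms the transporter that feeds peptides to MHC class I, had 466 and 439 reads at 11 coding sites. PPAN-P2RY11 had 382 and 385 reads, TRAC 343 and 341. GSPT1, the release factor eRF3 that acts at stop codons, had 185 and 193 reads at 2 coding sites beside 6 intron sites. AMH, the anti-Müllerian hormone gene, had the most coding sites, 17, with 128 and 153 reads. EXOSC6, a core subunit of the RNA exosome that degrades RNA from its 3' end, had 96 and 87 reads at 12 coding sites. TET3 and TAP1 had 11 coding sites each, and JARID2 and PPAN-P2RY11 had 10.

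Just outside the rule, 191 genes had coding sites and exactly 1 site in the other classes. That site was in the 5'-UTR in 79 of them, at the start codon in 77 and in the 3'-UTR in 35. LRFN4 and PKD1 led these with 20 coding sites each, with 141 and 194 reads in LRFN4 and 89 and 133 in PKD1. LPAR5 had 13 coding sites, ZNF865 12 and KIAA2013 8. Just inside it, the 66 genes at 7 summed reads were the least covered members.

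Both replicates listed 351 of the 543 coding-only mRNAs, 64.6% (Wilson 95% interval 60.5 to 68.5, counting error only), against 82.8% of the other genes with mRNA sites (81.6 to 83.9). Under 20 summed reads, 27.1% of coding-only mRNAs and 28.6% of the other genes were in both replicates. From 20 to 49 reads, 95.5% of coding-only mRNAs were. Of the 192 genes listed once, 183 had fewer than 20 reads. CLEC2B, a C-type lectin induced in activated lymphocytes, was the strongest of these, with 110 reads in replicate 1 and no listing in replicate 2.

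**Figure D1:**
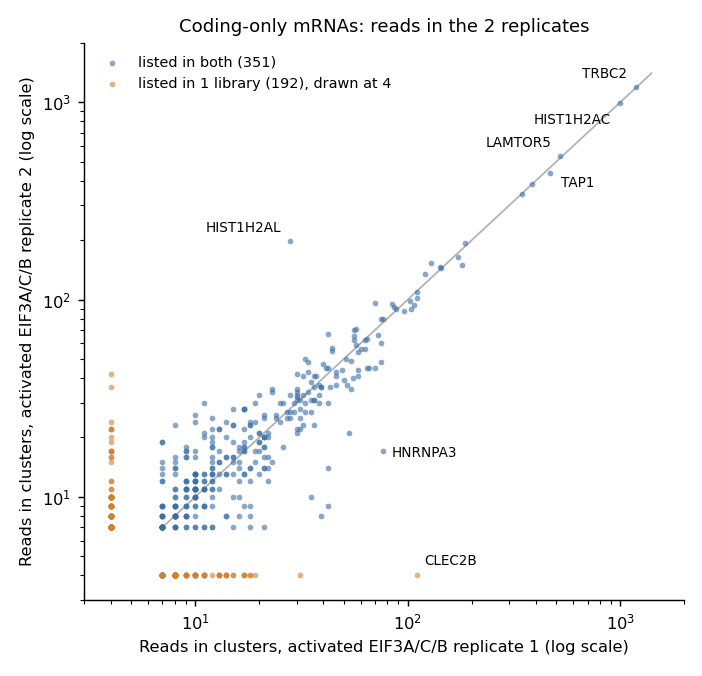
Reads in clusters of the 543 coding-only mRNAs in activated EIF3A/C/B replicate 1 (x) and replicate 2 (y), both on log axes, with 1 point per gene, the line of equal reads in grey and unlisted values drawn at 4. The 351 genes listed in both lie along the line except for 19 that differ by over 2-fold, among them HIST1H2AL at 28 and 198 reads.

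Among the 351, the median log2 ratio between replicates was 0 and 19 genes differed by over 2-fold. HIST1H2AL had 28 reads in replicate 1 and 198 in replicate 2, and in the EIF3B/C band the order was opposite, with 135 and 25. HNRNPA3, a nuclear RNA-binding protein, had 76 and 17. SCAF8 had 42 and 9, and LAPTM4B 39 and 8. Of their 20-base coding words, HIST1H2AL shared 52.4%, HNRNPA3 94.9%, SCAF8 17.9% and LAPTM4B 34.6% with other genes. ETNK1, at 53 and 21 reads, shared 1.40%, and ZCCHC3, at 42 and 14 reads, 0.17%. Whether shared sequence bears on these gaps was not tested. Over all 2809 genes of this band with enough reads, 40 in the sum of both replicates, the replicates differed by more than sampling noise, with a chi-squared of 3.16 per degree of freedom.

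To ask whether the class itself recurs, each replicate was also used once. Replicate 1 alone gave 517 coding-only mRNAs, of which 416 had mRNA sites in replicate 2, and 329 of these, 79.1% (Wilson interval 74.9 to 82.7), were coding-only there too. A 5'-UTR or start codon site appeared in 71 and a 3'-UTR site in 18. Over all genes with mRNA sites in replicate 2, 13.1% were coding-only. Of genes with other site classes in replicate 1, 2.93% were. With the replicates exchanged, the share was 78.0%. Both replicates were processed with the same annotation, which a shared class also reflects.

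The other bands were not used by the rule, but they came from the same replicates' immunoprecipitations with the EIF3B antibody and are no independent sample. In activated EIF3B/C, 214 coding-only mRNAs were listed and 196 of them had mRNA sites. Of these 196, 114 were coding-only again, 58.2% (51.2 to 64.8), against 6.03% (5.26 to 6.91) of the 3215 other mRNAs of that band. A 5'-UTR or start codon site was present in 45 and a 3'-UTR site in 44.

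LAMTOR5 had 2 coding sites in EIF3B/C and none elsewhere in the mRNA, EXOSC6 and EXOSC3 had 5 each, and AMH had 13 counting its stop codon site. PHLDA1, a pleckstrin homology domain protein, had 5 coding sites and no others. TAP1 had 11 coding sites, and 2 in the 3'-UTR. JARID2, a Polycomb partner, had 11 coding and 4 3'-UTR sites. GSPT1 had 3 sites in the 5'-UTR and none in the coding region. MT2A, a metallothionein, had 3 at or before the start codon, 1 at the stop codon and 2 in the 3'-UTR.

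In activated EIF3D/L, 53 coding-only mRNAs were listed, 39 had mRNA sites and 25 of these, 64.1% (48.4 to 77.3), were coding-only, against 5.67% (4.40 to 7.28) of 1005 other mRNAs. In non-activated EIF3B/C the counts were 17 of 27, 63.0% (44.2 to 78.5), against 4.96% (3.75 to 6.53) of 948. The bands with EIF3F/E and EIF3G/E/F, and the other non-activated bands, had 4 to 8 coding-only mRNAs with mRNA sites each. Outside activated EIF3A/C/B, 318 of the 543 genes were listed in no library, 58.6% (54.4 to 62.6), against 1076 of the 4044 other genes with mRNA sites, 26.6% (25.3 to 28.0). In activated EIF3B/C 39.4% of coding-only mRNAs and 71.9% of the others were listed, and in activated EIF3D/L 9.76% of coding-only mRNAs and 25.4% of the others. The others had more reads in EIF3A/C/B.

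**Figure D2:**
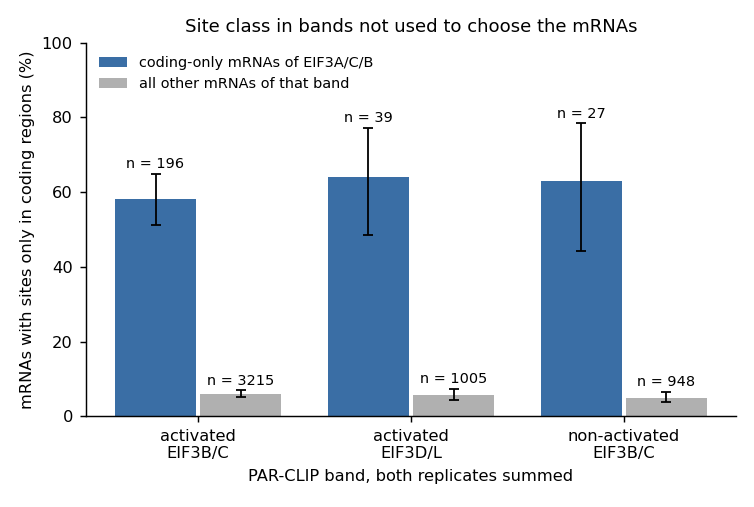
Share of mRNAs with sites only in coding regions (y, percent) in the 3 bands with the most coding-only mRNAs, for the coding-only mRNAs of EIF3A/C/B (blue) and all other mRNAs of that band (grey), with Wilson 95% intervals as error bars and the number of mRNAs above each bar. The blue bars are at 58.2%, 64.1% and 63.0% and the grey bars at 6.03%, 5.67% and 4.96%.

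Listing in EIF3B/C was also set beside the reads in EIF3A/C/B. With 20 to 49 summed EIF3A/C/B reads, 36.2% of 177 coding-only mRNAs and 60.3% of 1076 other genes were listed in activated EIF3B/C. With at least 100 reads, 93.8% of 48 and 99.1% of 1244 were. These shares are descriptions, and no test was made.

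LAMTOR5 was listed in all 20 libraries, HIST1H2AC in 19, RPL38 in 17 and UBL5 in 16. RPL38 is a protein of the large ribosomal subunit, and UBL5 is a ubiquitin-like protein of the spliceosome. A total of 8 coding-only mRNAs were listed in at least 10 libraries, the others being ATP5A1, HIST1H2AL, PCMT1 and TRBC2.

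The lengths of the mRNA regions were compared next, since the rule did not use them. In the canonical transcripts of GENCODE 44, on the same hg38 assembly but later than the annotation used to place the sites, 538 of 543 coding-only mRNAs and 3998 of 4044 other mRNAs had a match. The median 5'-UTR was 64 bases in coding-only mRNAs and 173 bases in the others. It was under 50 bases in 42.0% of coding-only mRNAs, against 9.88% of the others. The median coding region was alike, at 1190 and 1224 bases. The median 3'-UTR was 965 bases in coding-only mRNAs and 1379 bases in the others. The coding region took a median of 55.7% of the transcript in coding-only mRNAs and 45.1% in the others, and its T content was 19.5% in coding-only mRNAs and 21.5% in the others. Most of the others were in that group through a 5'-UTR or start codon site, so the sets closest to the coding-only mRNAs were also measured. The 1230 matched other genes with a coding site had a median 5'-UTR of 142 bases, under 50 bases in 15.3%, and a T content of 18.9%. The 231 matched genes with a 3'-UTR site and no 5'-UTR or start codon site had 125 bases, under 50 bases in 22.1%, and 17.9% T. The T content of coding-only mRNAs was thus above that of both these sets, while their median 5'-UTR was shorter than in either.

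By 5'-UTR length, coding-only mRNAs made up 43.7% (Wilson interval 37.9 to 49.6) of the 268 crosslinked mRNAs with under 25 bases. The share was 30.9% from 25 to 49 bases, 16.1% from 50 to 99 and 7.02% from 100 to 199. At 400 bases or more it was 4.69% (3.31 to 6.62) of 639. A shorter 5'-UTR leaves fewer bases that the tables could call 5'-UTR, and its part in the class was not tested.

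**Figure D3:**
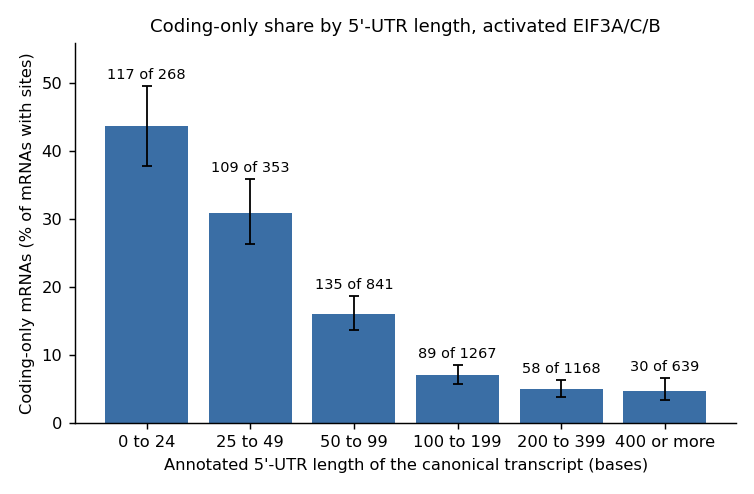
Share of crosslinked mRNAs that are coding-only (y, percent) by annotated 5'-UTR length of the canonical transcript (x, bases), activated EIF3A/C/B, with Wilson 95% intervals as error bars and counts above the bars. The share is 43.7% under 25 bases and 4.69% at 400 bases or more.

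The difference in 5'-UTR length was present at each level of coverage. Under 20 summed reads the medians were 64 bases in coding-only mRNAs and 152 in the others, and with at least 100 reads they were 74 and 209.5. HNRNPL, a splicing regulator, had 20 bases of 5'-UTR, AMH 10, MRPL52 26 and EXOSC6 40. There were exceptions. BCOR had 784 bases, JARID2 471, DIDO1 266 and GSPT1 236. TRBC2 and TRAC are annotated as constant segments with 0 bases, since their 5'-UTR belongs to the variable segment. In EIF3B/C, where the rule was not applied, the 184 matched mRNAs that were coding-only there but outside the set had a median of 88 bases, against 191 for the mRNAs with other site classes. The 45 coding-only mRNAs that gained a 5'-UTR or start codon site in EIF3B/C had a median of 111 bases, against 69 for the 114 that stayed coding-only.

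The functions of the set were described with 27 gene lists, set beside the 11.8% of all mRNAs with sites. Shares ranged widely, and many lists were small. Mitochondrial ribosomal proteins had 11 coding-only mRNAs of 42 with sites (26.2%), oxidative phosphorylation genes 15 of 66 (22.7%) coenzyme Q synthesis 4 of 5 and mitochondrial import and chaperones 3 of 19 (15.8%). No set test was made, and the lists were written with earlier results of these data known.

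MRPL52, of the large mitochondrial ribosomal subunit, had 110 and 109 reads, and MRPS15, of the small one, 60 and 56. ATP5A1, the α subunit of ATP synthase, had 111 and 102 reads, with 1 coding, 2 intron and 3 other sites. ATPIF1, an inhibitor of that enzyme, had 58 and 54. NDUFAB1, an acyl carrier subunit of complex I, had 46 and 41, and UQCRFS1, the Rieske iron-sulfur protein of complex III, 42 and 67. COQ2, which joins the side chain to the ring in coenzyme Q synthesis, had 39 and 36 at 5 coding sites. COQ5 had 18 and 23 reads, COQ4 11 and 11, and COQ9 10 and 10. GRPEL2, a cochaperone of mitochondrial import, had 44 and 57. The replicates of these genes stayed within 2-fold of each other. The median 5'-UTR was 26 bases in the 11 mitochondrial ribosomal genes and 69 in the 31 others of that list with sites, and 28 against 60.5 for oxidative phosphorylation. A gap was also present in lists of other functions. The medians were 49 bases in coding-only mRNAs and 132 in the others for DEAD and DEAH box helicases. They were 109 and 236 for zinc finger genes and 92 and 272.5 for cytokine receptor and JAK-STAT genes. Some lists had no such gap, with medians of 52 and 49 for cytosolic ribosomal proteins and 35 and 36 for core histones. The medians were 239 and 227 for chromatin methylation and Polycomb genes and 217 and 181 for deubiquitinases.

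**Figure D4:**
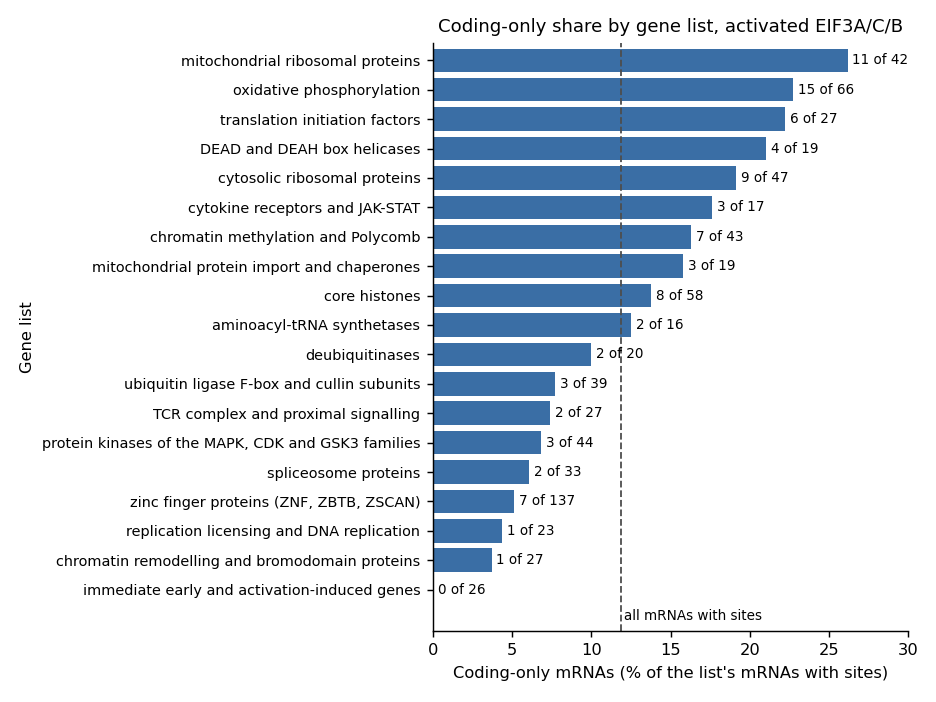
Share of crosslinked mRNAs that are coding-only (x, percent) for 19 of the gene lists with at least 15 mRNAs with sites (y), activated EIF3A/C/B, with counts beside the bars and the 11.8% over all mRNAs with sites as a dashed line. Mitochondrial ribosomal proteins are at 26.2% and immediate early genes at 0 of 26.

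Lists of translation and RNA metabolism had shares on both sides of 11.8%. Translation initiation factors gave 6 of 27 (22.2%), among them the eIF3 subunits EIF3J (56 and 62 reads), EIF3A (13 and 22), EIF3CL (30 and 21) and EIF3C (unlisted and 22). The list also holds EIF2AK3, a kinase that acts on eIF2. Cytosolic ribosomal proteins gave 9 of 47 (19.1%), with RPL38 at 143 and 145 reads, RPLP2 at 56 and 70 and RPL28 at 27 and 27. The RNA exosome gave EXOSC6 and EXOSC3 of 4 subunits with sites, and EXOSC3, a cap subunit, had 52 and 37 reads at 8 coding sites. DEAD and DEAH box helicases gave 4 of 19 (21.1%), with DDX17 at 34 and 48 reads and DHX30 at 30 and 35. HNRNPL, of the hnRNP proteins, had 179 and 150 reads. Spliceosome proteins gave BCAS2 and SF3A2 of 33 (6.06%).

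Nuclear and signalling lists also lay on both sides. Base excision and mismatch repair gave 2 of 9 (22.2%) and chromatin methylation and Polycomb genes 7 of 43 (16.3%). DIDO1 had 103 and 89 reads at 9 coding sites, JARID2 75 and 48 at 10, and SETD1B, a histone H3 methyltransferase, 19 and 17. Core histones gave 8 of 58 (13.8%), with HIST1H3J at 70 and 45 reads and HIST1H3C at 43 and 36. Zinc finger genes gave 7 of 137 (5.11%), led by ZNF775 with 54 and 35. Kinases of the MAPK, CDK and GSK3 families gave 3 of 44, with GSK3A at 72 and 66 reads. Cytokine receptor and JAK-STAT genes gave IRF9 (75 and 60 reads), IL17RA (30 and 42) and IL4R (12 and 9) of 17 (17.6%). T cell receptor complex and proximal signalling genes gave TRBC2 and TRAC of 27. The immediate early and activation-induced list gave 0 of 26 with sites, which allows a share of up to 11.5% by 3 counts of the total and has a Wilson upper limit of 12.9%, above the 11.8% over all mRNAs.

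Activated and non-activated cells were compared next, as the study's design sets them against each other. In EIF3A/C/B, 8 of the 543 genes (1.47%) were listed in non-activated cells, against 157 of the 4044 other genes with mRNA sites (3.88%). The rule needed a site in the activated libraries of this band, so the contrast there has no test. The reads given next are raw counts, not scaled to library size. HIST1H2AC had 996 and 992 reads in activated cells and 52 and 59 in non-activated cells. LAMTOR5 had 521 and 533 reads in activated cells and 42 and 45 in non-activated cells. RPL38 had 143 and 145 reads in activated cells, against 22 and 19 in non-activated cells. UBL5 had 172 and 164 reads in activated cells, against 12 and 9 in non-activated cells. The activated libraries of this band were far deeper, with 1148037 and 1163754 uniquely aligned reads, against 84320 and 83846 in the non-activated libraries. The raw reads of these genes therefore give no direction between the states.

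In EIF3B/C, 87 coding-only mRNAs had at least 20 reads in a library and were tested with edgeR on the reads in clusters, each library's size being its total of uniquely aligned reads. At an adjusted p of 0.05 or less, 37 were higher and 1 was lower in activated cells. This is 42.5% and 1.15% of the members tested, close to the 40.9% higher and 2.47% lower among all 2188 genes tested. It is therefore not a result about coding-only mRNAs. Of the 37 called higher, 35 were unlisted in both non-activated libraries. The other members called higher, TRBC2 and MT2A, were listed there with under 20 reads. All 37 thus reached 20 reads only through the activated libraries, and the rule itself asked for a site in activated cells. Their direction is therefore no independent result, and no p is given for their calls. For the 35 no fold change is given either, since an unlisted gene may also have reads that formed no cluster. Levels are given as RPM, reads in clusters per 1000000 uniquely aligned reads. The median in activated cells was 32.9 RPM over the 87, against 45.0 RPM over all genes tested. Of the aligned reads, 48.9 to 49.1% were on mRNA in activated and 36.6 to 37.2% in non-activated libraries. Taking the mRNA reads as library sizes shifts the log2 fold change by about -0.41 for genes listed in every library of the band. Unlisted genes shift less, and the median over all genes went from 6.17 to 6.09. With this scaling 33 members were called higher and 3 lower. No gene of the 2188 was called by edgeR when either activated library was left out, with 159 and 162 genes at an unadjusted p under 0.05.

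TRBC2 had 886 and 911 RPM in activated cells and 52.2 and 36.9 RPM in non-activated cells, with no overlap. Its log2 fold change was 4.35 ± 0.22 (SE) with an edgeR adjusted p of 0.0148. TRAC had 396 and 375 RPM in activated cells and was unlisted in non-activated cells. PPAN-P2RY11 had 378 and 441 RPM in activated cells and was also unlisted in non-activated cells. PIEZO1, a mechanosensitive cation channel, had 172 and 231 RPM in activated cells, and DMPK, a protein kinase known from myotonic dystrophy, 132 and 144 RPM. Both were unlisted in non-activated cells.

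MT2A had 157 and 225 RPM in activated cells and 73.1 and 50.3 RPM in non-activated cells, a log2 fold change of 1.64 ± 0.36 (edgeR adjusted p = 0.0324). That call was lost with the mRNA reads as library sizes (edgeR adjusted p = 0.0630) and with DESeq2 (adjusted p = 0.359). RPL38 was the 1 member called lower. It had 73.2 and 81.6 RPM in activated cells and 360 and 362 RPM in non-activated cells, a log2 fold change of -2.22 ± 0.19 (edgeR adjusted p = 0.0234). HIST1H2AC, with 973 and 977 RPM in activated cells and 1059 and 1167 RPM in non-activated cells, did not pass (log2 fold change -0.19 ± 0.09, edgeR adjusted p = 0.160). With the mRNA reads as library sizes it was called lower (edgeR adjusted p = 0.0282), as was UBL5 (edgeR adjusted p = 0.0401), which had 192 and 169 RPM in activated cells and 287 and 231 RPM in non-activated cells. LAMTOR5, with 210 and 189 RPM in activated cells and 157 and 114 RPM in non-activated cells, did not pass either, at a log2 fold change of 0.56 ± 0.26 (edgeR adjusted p = 0.153).

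**Figure D5:**
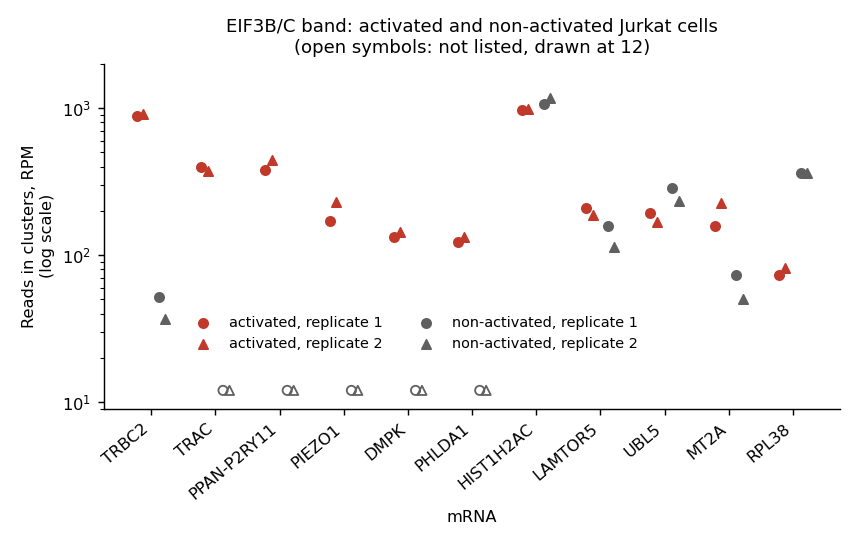
Reads in clusters in RPM (y, log scale) of 11 coding-only mRNAs (x) in the EIF3B/C band of activated (red, left) and non-activated (grey, right) Jurkat cells, 1 symbol per replicate, open where the gene was not listed. TRBC2 is at 886 and 911 RPM in activated cells and 52.2 and 36.9 RPM in non-activated cells, and RPL38 is at 73.2 and 81.6 RPM in activated cells and 360 and 362 RPM in non-activated cells.

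In EIF3D/L, 9 coding-only mRNAs reached 20 reads. At an edgeR adjusted p of 0.05 or less, 8 of them (88.9%) were higher in activated cells and 0 were lower. Among all 431 genes tested, 74.5% were higher and 0.232% lower. Of the 8, 5 were unlisted in both non-activated libraries, and TRBC2 and LAMTOR5 had under 20 reads in each of these. Only HIST1H2AC thus reached 20 reads in both states, and the rule itself asked for a site in activated cells. The share is therefore not a result about coding-only mRNAs. The 8 were also the members at an unadjusted p under 0.05, and DESeq2 called 4 higher and 0 lower. The mRNA reads were 49.2 to 49.3% of the aligned reads in activated and 12.5 to 12.6% in non-activated libraries. Taking them as library sizes shifts the log2 fold change by about -1.97 for genes listed in every library of this band. Unlisted genes shift less, and the median over all genes went from 7.02 to 6.44. With this scaling 47.1% of all genes and 4 members were called higher. TRBC2 had 804 and 905 RPM in activated cells and 42.6 and 39.2 RPM in non-activated cells, a log2 fold change of 4.36 ± 0.41. LAMTOR5 had 544 and 464 RPM in activated cells and 58.6 and 95.3 RPM in non-activated cells, a log2 fold change of 2.71 ± 0.41. No p is given for TRBC2 and LAMTOR5, which reached 20 reads only through the activated libraries. HIST1H2AC had 1098 and 1113 RPM in activated cells and 314 and 263 RPM in non-activated cells, a log2 fold change of 1.93 ± 0.34 (edgeR adjusted p = 0.00219). With the mRNA reads as library sizes the HIST1H2AC value turned to -0.036 and LAMTOR5, at 0.74, lost its call. PHLDA1, CLEC2B, PPAN-P2RY11, TRAC and HIST1H3J were unlisted in both non-activated libraries and reached 20 reads only through the activated ones, so no p is given for them. They were called as well, but TRAC and HIST1H3J lost the call with TMM, with the mRNA reads as library sizes and with DESeq2. UBL5 did not pass (edgeR adjusted p = 0.110). Leaving out either activated library again left edgeR with no call among all genes, with 74 and 59 genes at an unadjusted p under 0.05.

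mRNA levels were taken from the RNA-Seq tables, as means of 2 replicates with no spread. Coding-only mRNAs had a median of 0.783 TPM in activated cells (535 matched by symbol), against 0.996 TPM for the other genes with mRNA sites and 0.0327 TPM over all genes in the table. In non-activated cells the medians were 4.38, 4.76 and 0.121 TPM. Reads in EIF3A/C/B and TPM in activated cells were weakly related across 534 coding-only mRNAs, with a Spearman rho of 0.20 and a Pearson r of 0.23 on log2 values. Across 4008 other genes rho was 0.33. Genes are not independent replicates.

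TPM was lower in activated cells in most genes. TPM is a share of the total, so a lower value is relative to the other transcripts. The median log2 ratio of TPM, activated over non-activated, was -2.41 over 423 coding-only mRNAs with a mean of at least 1 TPM and -2.22 over all 8504 such genes, of which 95.9% had a ratio below -1. Of the 423, 1 gene had a log2 ratio above 1, which is 0.236%, against 0.529% of all genes. That gene was CLEC2B, at 4.58 TPM in activated cells and 1.39 TPM in non-activated cells, 3.87 log2 units above the median of all genes. TRAC was at 15.0 TPM in activated cells and 7.96 TPM in non-activated cells. IRF9, the DNA-binding partner of the STATs in interferon signalling, was at 3.65 TPM in activated cells and 2.64 TPM in non-activated cells. PHLDA1, below 1 TPM in both states, was at 0.279 TPM in activated cells and 0.0457 TPM in non-activated cells. LAMTOR5 was at 1.43 TPM in activated cells and 8.36 TPM in non-activated cells. HIST1H2AC was at 5.83 TPM in activated cells and 43.2 TPM in non-activated cells. Relative to the median of all genes, the log2 ratio was -0.25 for LAMTOR5 and -0.65 for HIST1H2AC.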

How the data were processed

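The authors aligned barcode-collapsed PAR-CLIP reads to hg38, called clusters with PARalyzer in PARpipe and deposited, per library and gene, counts of sites, reads and unique reads and the median T-to-C fraction. The other deposited columns used here were start and stop codon sites, library totals and transcript lengths. The authors also deposited RNA-Seq TPM from kallisto as means of 2 replicates. The members and the gene lists were chosen with earlier results of these data known. An unlisted gene entered as 0 reads. Activated and non-activated cells were compared with edgeR 4.0.16 (quasi-likelihood test, genes reaching 20 reads in 1 library or more, Benjamini-Hochberg adjustment over all genes tested, threshold 0.05) and, as an alternative, DESeq2 1.42.0. The edgeR script was tested on simulated data. TPM was summed per gene symbol and compared as log2(TPM + 0.1). Shares have Wilson intervals, which cover counting error only. Named genes are the 20 members with the most reads in both replicates, up to 4 per gene list, those called (5 per direction where over 10), 5 each with only stop codon or with the most intron sites, and 5 just outside the rule. PCMT1, TET3 and the genes named for replicate gaps, shared sequence or TPM changes were named after their values were seen. Regions and sequences came from GENCODE 44 canonical transcripts, with 501 members matched by symbol and 37 through an older symbol in RefSeq. One item is not reported here.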

Additional observations from a re-analysis of the deposited data

Results flagged for a closer look

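Of 5 coding-only mRNAs with reads in all libraries of both the EIF3B/C and EIF3D/L bands, 3 moved in opposite directions between the states in the 2 bands, with no overlap of replicates in either band. RPL38 had a log2 ratio of mean RPM, activated over non-activated, of -2.22 in EIF3B/C and 0.62 in EIF3D/L. HIST1H2AC had -0.19 in EIF3B/C and 1.94 in EIF3D/L. PCMT1, a protein repair methyltransferase, had -0.49 in EIF3B/C and 0.66 in EIF3D/L. With the reads on mRNA as library sizes all 3 were negative in EIF3D/L too, at -1.35 for RPL38, -0.036 for HIST1H2AC and -1.31 for PCMT1, so the opposite signs depend on the scaling. The difference between bands was not tested.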

How the results depend on the processing

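In place of the 543 genes, the rule gave 517 genes from replicate 1 alone and 535 from replicate 2 alone, 329 if coding-only in both replicates, 292 with at least 20 summed reads and 337 with at least 2 coding sites. Listing in both replicates was 96.9% with at least 20 summed reads, 97.6% with at least 2 coding sites and, in an alternative added after seeing the data, 60.3% without members that had intron or unplaced sites. The coding-only share in activated EIF3B/C was 59.7% to 66.9% with 1 replicate left out. Members called in EIF3B/C numbered 18 of 46 with an adjusted p from DESeq2 (over all genes 407 higher and 18 lower of 1510), 62 of 217 with no filter on low counts (1224 higher and 52 lower of 4177) and 0 to 49 with 1 library left out. Those called in EIF3D/L numbered 4 of 9 with TMM, 4 with mRNA reads as library sizes and 4 with DESeq2 (46.2%, 47.1% and 53.5% of all genes higher), 18 of 55 with no filter (52.8%) and 0 to 8 with 1 library left out. With the replicate block edgeR called 0 members in EIF3B/C (11 at an unadjusted p under 0.05) and 0 in EIF3D/L (3). Replicate deviations of the 2 states did not correlate (0.0074 and -0.0021). This cannot decide whether the numbers pair the samples. Of all genes tested, 53.1% in EIF3B/C and 68.7% in EIF3D/L were unlisted in both non-activated libraries and have no deviation there. HIST1H2AC in EIF3D/L was at -0.036 with mRNA reads as library sizes. The median log2 TPM ratio was -1.70 with a pseudocount of 1, and the median TPM 0.30 for the most abundant protein-coding isoform. The cause of these changes was not tested. With 2 replicates per state and clusters of at least 7 reads, low genes limit every count here.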
